A study of Mus musculus with 10 samples.

Results

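Transcripts of 9 gut peptide hormones (Gcg, Gip, Cck, Sct, Nts, Pyy, Sst, Ghrl and Tac1) were examined in mouse jejunum. The genes were taken by symbol, and each symbol matched 1 row, giving 9 of the 45707 rows in the table. The libraries came from 5 Vil-Cre mice and 5 Vil-Cre:NDI1 mice, 1 library per mouse. All 10 carried Vil-Cre and were male littermates, 8 to 12 weeks of age, which had been fasted for 16 to 18 h and had received water by gavage 1 h before the jejunum was taken. Villin-Cre recombines DNA in intestinal epithelial cells, which include the enteroendocrine cells that make these hormones. In Vil-Cre:NDI1 mice it also removes a stop cassette in front of yeast NDI1, a single-subunit NADH dehydrogenase, at the ROSA26 locus. Whole tissue was sequenced, so fewer cells of a type and less RNA per cell cannot be told apart. The comparison asked whether NDI1 changes the jejunal transcriptome, and it is read here for the hormones.

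Enteroendocrine cells are rare cells scattered through the gut epithelium that release peptides into blood and tissue, many of them in response to a meal. Each hormone is made as a precursor, cut by prohormone convertases and stored in dense granules. Many, but not all, are released when nutrients reach receptors on the cell. The mix of hormones changes along the gut: Gip and Cck are known from the proximal small intestine, and Pyy, Nts and the glucagon-like peptides encoded by Gcg become more frequent towards the ileum. Sst and Tac1 are also made by enteric neurons, so their transcripts in whole tissue have more than 1 source.

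The libraries held 10145705 to 12371530 reads assigned to genes, and the hormone genes were covered by 10 to 594 reads in a library. The transgene had a normalized count of 982 to 2575 in Vil-Cre:NDI1 mice, and at most 1 read in Vil-Cre mice, of which 4 had 0. Values are normalized counts, that is, reads divided by the DESeq2 size factor of the library. The sum over the 9 hormones was 1374 ± 124 in Vil-Cre mice and 1360 ± 152 in Vil-Cre:NDI1 mice (SD, n = 5 each). The lowest sum, 1093, was that of Vil-Cre:NDI1 5, and the highest, 1554, that of Vil-Cre 3. Vil-Cre:NDI1 5 was also the lowest of the 10 mice for 6 of the 9 tested genes of the enteroendocrine lineage and 3 of the 9 granule genes, such as Chgb at 289. Of the 9 tested genes that mature the precursors, it was lowest for 2 and highest for 2. Over all 14301 genes tested it was lowest for 1889 and highest for 2230, and it was highest for 7 of the 11 tested enterocyte markers. Its library also had the largest normalized total, 12106474, and the fewest genes with a read, 19243.

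Per kilobase of exon, the scale on which genes can be compared, Gip was the most abundant hormone transcript. Its level was 580 ± 191 normalized counts per kilobase (SD, n = 10 mice) and it made up 35.4% ± 9.56 of the summed level of the 9 genes. Sst followed at 340 ± 64.5 per kilobase, Sct at 245 ± 31.5 and Nts at 206 ± 63.6. Pyy (78.4 ± 51.0), Gcg (74.0 ± 25.6) and Cck (52.7 ± 20.6) formed a middle range, and Ghrl (30.6 ± 16.8) and Tac1 (13.5 ± 4.50) were lowest. Neighbours in this order were not always apart. Gip exceeded Sst in 9 of 10 mice, Sst exceeded Sct in 9 of 10 and Nts exceeded Pyy in 10 of 10, but Pyy exceeded Gcg in only 5 of 10. With the length of the longest protein-coding transcript in place of all exons, a choice made after the data were seen, Gcg moved ahead of Pyy (101.7 against 89.2 per kilobase) and Tac1 ahead of Ghrl (37.3 against 37.0).

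**Figure D1:**
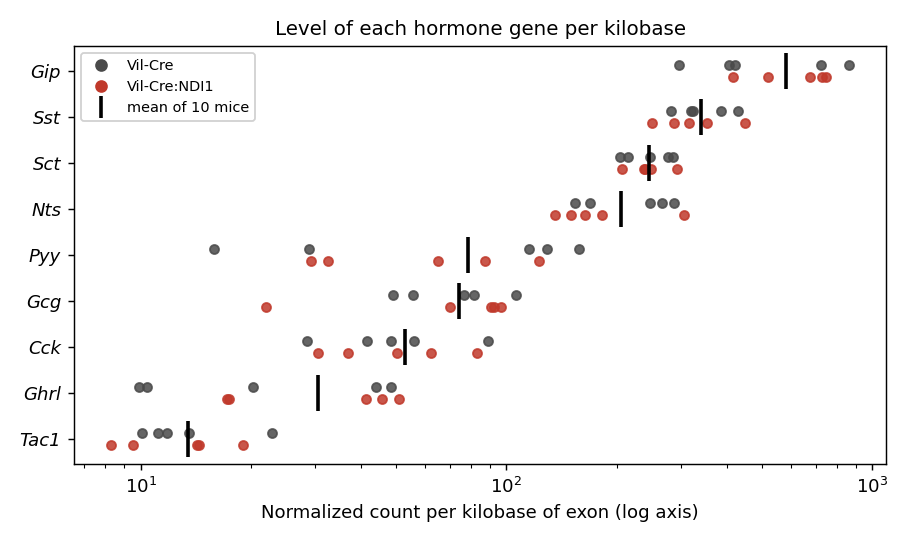
Level of the 9 hormone genes in normalized counts per kilobase of exon (log axis), 1 point per mouse, with Vil-Cre mice above and Vil-Cre:NDI1 mice below each line and a black bar at the mean of 10 mice. Gip lies highest at a mean of 580 and Tac1 lowest at 13.5, and the points of Pyy and Ghrl are the most widely spread.

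No hormone gene passed the test between the genotypes. All 9 passed the filter of 10 normalized counts in 5 mice, and limma called 0 of them at a Benjamini-Hochberg adjusted p of 0.05. Over all 14301 genes tested, 1 was called (0.00699%), the NDI1 transgene itself. At an unadjusted limma p under 0.05 there were 0 hormone genes, beside 606 of all genes tested (4.24%). The groups overlapped for each of the 9, while they did not overlap for 100 of all genes tested (0.699%). The log2 fold change was above 0 for 4 hormones and below 0 for 5, with a median of -0.08, beside 0.01 over all genes tested.

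How large a difference these mice could still hide varied by gene. The 95% limma interval stayed inside 2-fold in either direction for 7 of the 9 hormones, as it did for 79.6% of all genes tested. It did not for Pyy, at -1.56 to 1.26, and Ghrl, at -0.61 to 1.63. A 2-fold difference in either direction was thus not excluded for Pyy, nor a 2-fold increase in Vil-Cre:NDI1 mice for Ghrl. The intervals are those of single genes and are not adjusted for the number of genes tested.

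**Figure D2:**
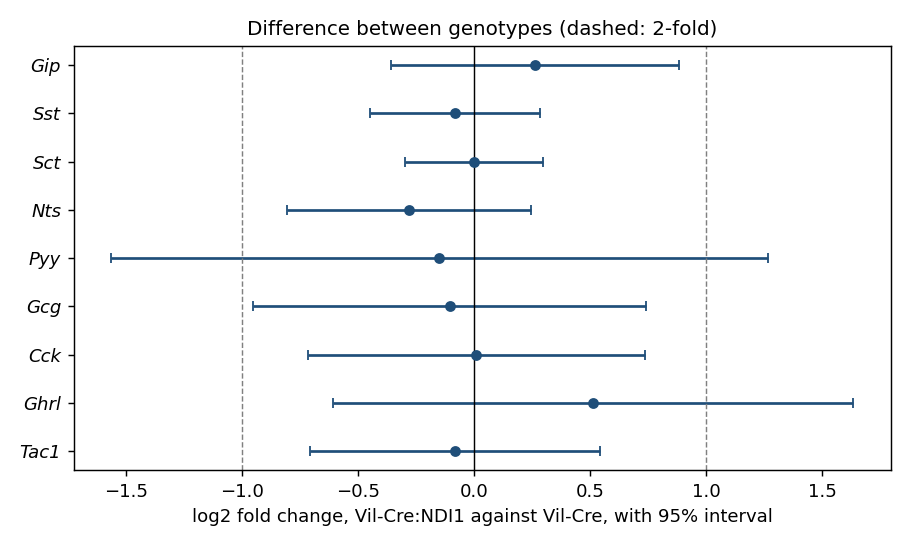
Log2 fold change of each hormone gene, Vil-Cre:NDI1 against Vil-Cre, with its 95% limma interval (n = 5 mice per group, dashed lines at 2-fold). All 9 intervals include 0, and those of Pyy and Ghrl reach past 2-fold.

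Gip encodes the incretin of K cells and is located at chr11:96024545-96030831 (plus strand, GRCm38). Its normalized counts were 279, 290.0, 595, 497.5 and 204 in Vil-Cre mice 1 to 5, and 513, 466, 502, 286 and 356 in Vil-Cre:NDI1 mice 1 to 5. Vil-Cre 3 and 4 and Vil-Cre:NDI1 1, 2 and 3 held the high values, so the genotypes overlapped throughout. The log2 fold change was 0.26 with a standard error of 0.28 (limma adjusted p = 0.998), and the two-sided exact permutation test gave p = 0.4365.

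Ghrl, the precursor of ghrelin, which stimulates appetite, lies at chr6:113716119-113719880 (minus strand). The values were 11.2, 21.9, 52.1, 47.5 and 10.7 in Vil-Cre mice and 54.9, 44.6, 49.4, 18.6 and 18.8 in Vil-Cre:NDI1 mice. The same 5 mice that were high in Gip were high in Ghrl, with an empty range between 21.9 and 44.6. Its log2 fold change was 0.51 with a standard error of 0.51 (limma adjusted p = 0.998). An antisense gene, Gm26982, shares 3 exon bases with Ghrl, and a further gene of unknown type, Gm44033, shares 15.7% of its exon bases on the opposite strand. Whether reads were counted by strand is not stated, so the Ghrl value is uncertain to that extent.

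Cck encodes cholecystokinin, the I-cell hormone that contracts the gallbladder, at chr9:121489824-121495694 (minus strand). It was 54.2, 37.2, 116, 72.8 and 63.1 in Vil-Cre mice and 109, 48.3, 81.3, 65.6 and 39.9 in Vil-Cre:NDI1 mice. The highest and the lowest mouse were both Vil-Cre. The log2 fold change was 0.01 with a standard error of 0.33 (limma adjusted p = 0.999).

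Pyy encodes peptide YY, an L-cell hormone that slows transit and reduces appetite, at chr11:102106676-102107832 (minus strand). Its values were 72.9, 99.6, 10.02, 18.2 and 81.6 in Vil-Cre mice and 20.6, 41.0, 18.4, 77.4 and 55.2 in Vil-Cre:NDI1 mice. The highest mouse had 9.94 times the value of the lowest, and both were Vil-Cre. Its spread over mice on the log2 scale was larger than that of 96.4% of all genes tested, against 93.7% for Ghrl and 25.4% for Sct. The log2 fold change was -0.15 with a standard error of 0.65 (limma adjusted p = 0.998).

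Nts encodes neurotensin, a peptide of distal enteroendocrine cells that promotes fat absorption, at chr10:102481756-102490486 (minus strand). The values were 332, 359, 192, 211 and 309 in Vil-Cre mice and 169.6, 205, 187, 382 and 228 in Vil-Cre:NDI1 mice. Vil-Cre 1, 2 and 5 and Vil-Cre:NDI1 4 were above the other 6 mice, with none between 228 and 309. The log2 fold change was -0.28 with a standard error of 0.24 (limma adjusted p = 0.998).

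Gcg, the precursor of GLP-1 and GLP-2, lies at chr2:62474530-62483650 (minus strand). It was 121.5, 159, 73.1, 82.9 and 115 in Vil-Cre mice and 135, 144, 105, 138 and 32.9 in Vil-Cre:NDI1 mice. Vil-Cre:NDI1 5 was the lowest of the 10. The log2 fold change was -0.10 with a standard error of 0.39 (limma adjusted p = 0.998), and it was 0.29 without Vil-Cre:NDI1 5 and 0.04 without Vil-Cre 2.

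The other 3 genes did not divide the mice as Gip and Ghrl did, and neither did Cck and Gcg. Sct encodes secretin, which evokes bicarbonate secretion, at chr7:141278330-141279133 (minus strand). It was 132, 178, 159, 138.5 and 184 in Vil-Cre mice and 159.8, 134, 154, 189 and 154 in Vil-Cre:NDI1 mice, with means of 158 ± 23.1 and 158 ± 19.9 (SD, n = 5 each) and a log2 fold change of 0.00 with a standard error of 0.14 (limma adjusted p = 1.0). Sst encodes somatostatin, which inhibits the release of other hormones, at chr16:23889573-23890958 (minus strand). It was 233, 231, 309.6, 203 and 278 in Vil-Cre mice and 227, 323, 256, 208 and 181 in Vil-Cre:NDI1 mice, a log2 fold change of -0.08 with a standard error of 0.17 (limma adjusted p = 0.998). Tac1, the precursor of substance P, lies at chr6:7554879-7565834 (plus strand). It was 40.2, 77.7, 46.1, 34.4 and 37.9 in Vil-Cre mice and 49.0, 64.7, 48.4, 32.3 and 28.2 in Vil-Cre:NDI1 mice, a log2 fold change of -0.08 with a standard error of 0.29 (limma adjusted p = 0.998). Both number 2 mice were the highest of their group.

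**Figure D3:**
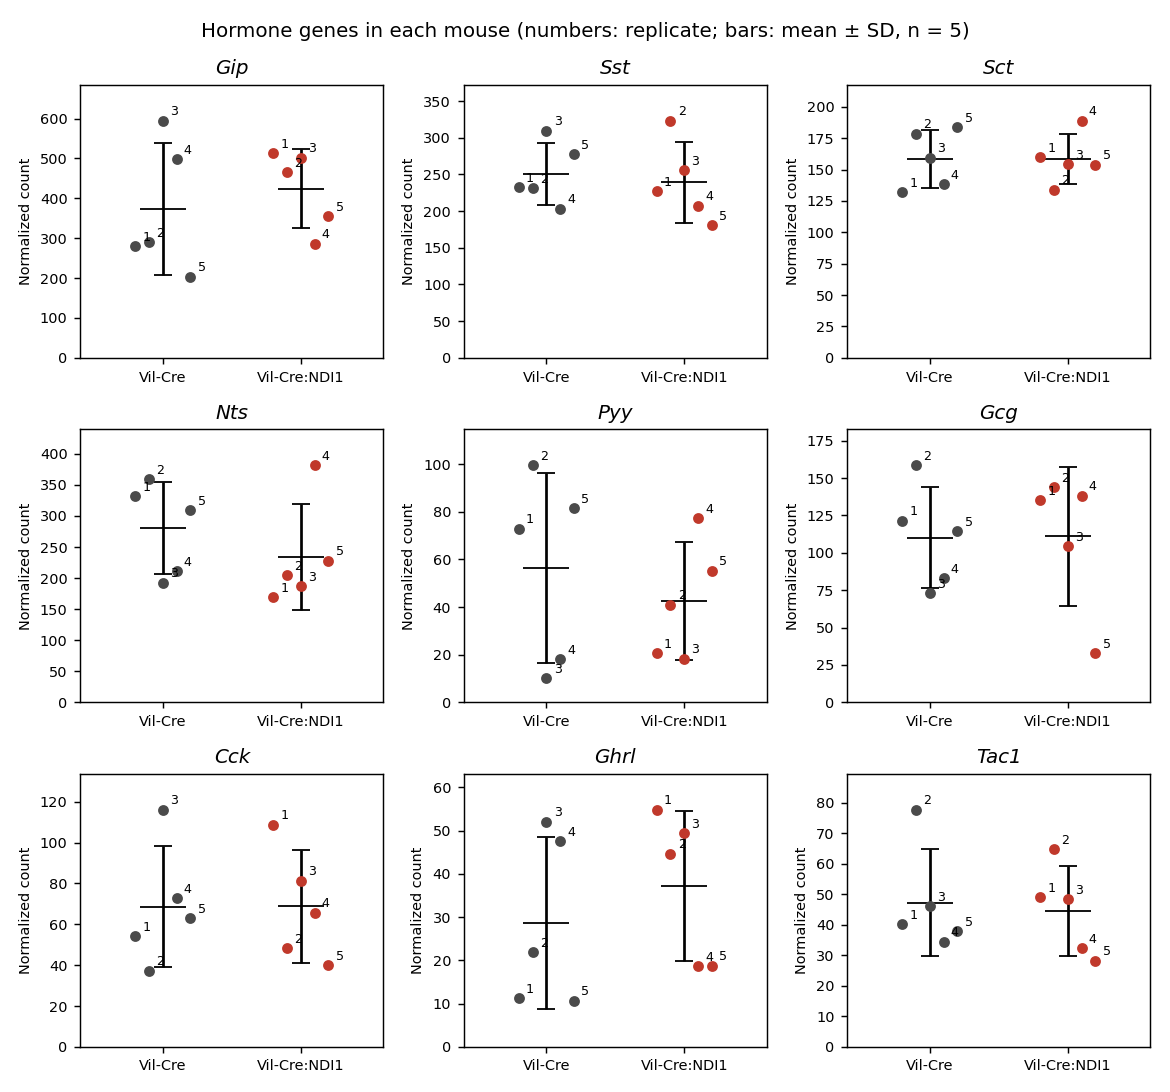
Normalized count of each hormone gene in each mouse (linear axis from 0), with the replicate number beside each point and the mean ± SD of 5 mice as bars. The genotypes overlap in every panel, and Vil-Cre 3 and 4 sit with Vil-Cre:NDI1 1, 2 and 3 in the panels of Gip and Ghrl.

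The larger differences were between mice of the same genotype, and the hormones divided in their direction. Gip was at least 466 in Vil-Cre 3 and 4 and Vil-Cre:NDI1 1, 2 and 3, and Pyy was at most 41.0 in those mice. In the other 5 mice Gip was at most 356 and Pyy at least 55.2. Over the 10 mice, log2 levels of Gip and Pyy had a Pearson r of -0.91 (p = 0.00048, adjusted p = 0.00864) and a Spearman rho of -0.87 (p = 0.00219, adjusted p = 0.0394; permutation test with 100000 resamples, two-sided, adjusted over 36 pairs). Without Vil-Cre 3 and 5, the mice farthest from the median of Gip, r was -0.94, and with the genotype means removed it was -0.93 (permutation adjusted p = 0.00252). Cck and Pyy had an r of -0.79 (permutation p = 0.00777, adjusted p = 0.04) and a rho of -0.73 (permutation p = 0.0203, adjusted p = 0.104). Without Vil-Cre 2 and 3, the mice farthest from the median of Cck, r was -0.61. Leaving out 1 mouse kept r between -0.84 and -0.70, although the call was lost without Vil-Cre 1, 2, 3 or 4 or Vil-Cre:NDI1 1 or 3.

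Of the 36 pairs, 7 passed the threshold in r (2 with r above 0 and 5 below 0) and 4 passed in rho. Without Vil-Cre:NDI1 1, or without Vil-Cre:NDI1 3, 2 pairs passed. Among the 7, 5 include Ghrl or Nts, whose mice fell into separate sets with an empty range that took up 44.1% of the log2 range for Ghrl and 37.5% for Nts, so no correlation over the 10 mice is given for them, and none was run within the sets, which held 5 and 5 mice for Ghrl and 6 and 4 for Nts. The criterion, a gap of over 33.3%, was chosen after the values were seen. Gip stayed under it with a gap of 25.2%, but that gap divided the mice into the same 5 and 5 as Ghrl. The r of Gip with Pyy thus spans those 2 sets of mice. Pyy was also under the criterion, with a gap of 30.1% between 20.6 and 41.0 and 4 mice below it. Both r values given for Pyy, with Gip and with Cck, include this gap.

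Some genes that mark position along the small intestine divided the mice into the same 5 and 5 as Gip, in the same or the opposite direction. Others did not. The 5 mice highest in Gip were also the 5 highest for 3 of the 6 tested proximal markers (Onecut2, Gata4 and Lct), beside 2.67% of all genes tested. They were the 5 lowest for 4 of the 8 tested distal markers (Slc10a2, Fabp6, Slc51a and Slc51b), beside 2.24% of all genes. The same 5 mice were also the highest for 3 of the 11 tested enterocyte markers (Apoa4, Fabp1 and Lct, which is also in the proximal list) and the lowest for Fabp2. They were the highest for 1 of 9 granule genes (Chgb). They were the lowest for 2 of 8 other peptides (Gal and Guca2a) and 1 of 8 nutrient sensors (Ffar4). In the remaining lists no tested gene divided the mice in this way. These counts were made after the values were seen. Cybrd1, listed as proximal, was 13.7 to 25.2 in these 5 mice and 22.4 to 37.2 in the others. Onecut2, a transcription factor of the proximal intestine, was 744 and 407.5 in Vil-Cre 3 and 4 and 580, 341 and 430 in Vil-Cre:NDI1 1, 2 and 3, and 20.6 to 81.0 in the other 5 mice. Slc10a2, the bile acid transporter of the ileum, was 2.94 to 20.9 in the 5 mice highest in Gip and 199 to 561 in the others. Summed over the 8 genes of the proximal list, the level was 6949 to 33530 in Vil-Cre mice and 14470 to 30250 in Vil-Cre:NDI1 mice. Summed over the 10 distal genes it was 3603 to 8880 and 3547 to 7684, so neither sum separated the genotypes. Lct, at 6088 to 31350 over the 10 mice, held most of the proximal sum in each mouse. Slc51a and Slc51b together held most of the distal sum. The part of these markers in the hormone pattern was not tested.

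**Figure D4:**
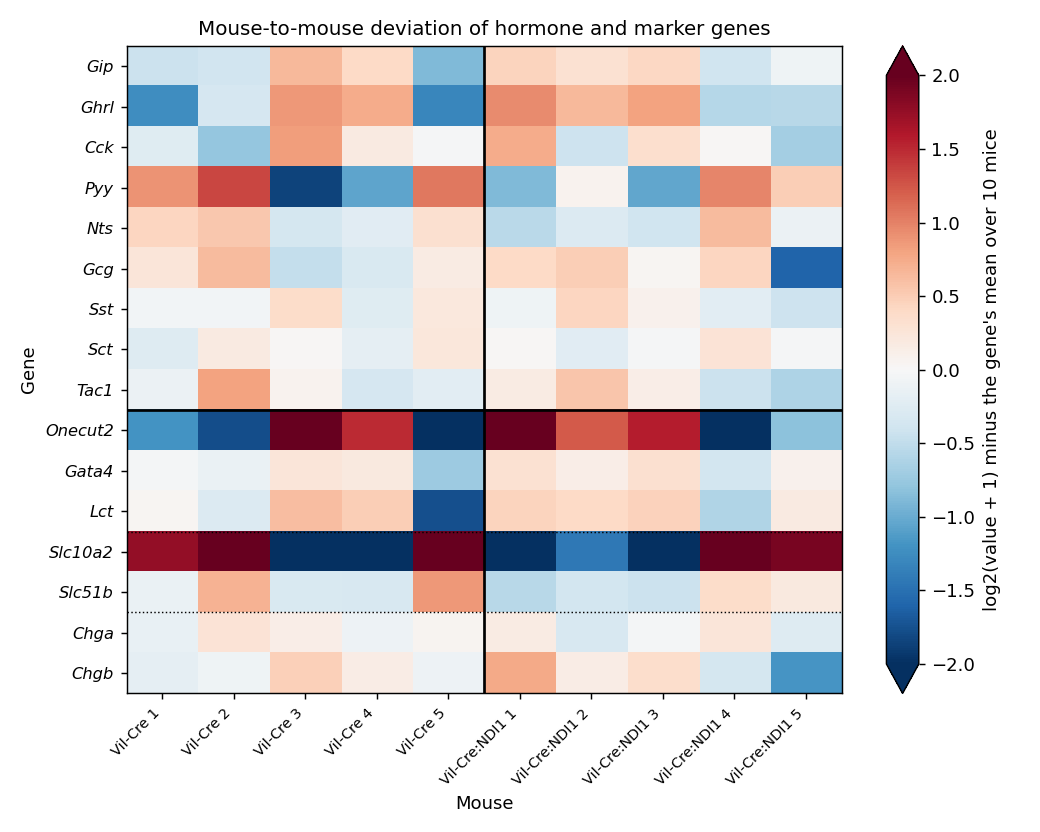
Deviation of log2(value + 1) from the mean of the 10 mice for the 9 hormones (upper block), then Onecut2, Gata4 and Lct as proximal markers, Slc10a2 and Slc51b as distal markers, and the granule genes Chga and Chgb, with colours ending at 2 log2 units. Gip, Ghrl and Onecut2 are above their mean in Vil-Cre 3 and 4 and Vil-Cre:NDI1 1, 2 and 3, where Slc10a2 is below its mean.

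With the log2 level of Onecut2 as a covariate, an alternative added after the data were seen, the standard error of the genotype difference fell from 0.28 to 0.11 for Gip, from 0.24 to 0.10 for Nts, from 0.65 to 0.29 for Pyy, from 0.51 to 0.28 for Ghrl and from 0.33 to 0.28 for Cck. It went from 0.39 to 0.40 for Gcg, from 0.286 to 0.292 for Tac1, from 0.14 to 0.13 for Sct and from 0.17 to 0.16 for Sst. Onecut2 was taken because it divided the mice as Gip and Ghrl do, which fixes a fall for such genes, so the fall is a description and supports no cause. Over all genes tested the median standard error went from 0.18 to 0.17. The log2 fold changes in that fit were 0.14 for Gip, -0.18 for Nts, 0.12 for Pyy and 0.31 for Ghrl, and 0 of the 9 hormones was called by limma.

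Gip was higher in the mice where Pyy and Nts were lower, and the Sst window holds a cAMP response element. The bases upstream of the start are shown for Gip, Pyy, Nts and Sst. They are the 120 bases before the RefSeq start, 5′ to 3′ on the gene's strand, at chr11:96024425-96024544 (plus strand), chr11:102107833-102107952, chr10:102490419-102490538 and chr16:23890845-23890964 (minus strand; GRCm38.p6). Capitals mark TATAA on the gene's strand, the cAMP response element TGACGTCA, and the ONECUT core ATCAAT on either strand.
Gip: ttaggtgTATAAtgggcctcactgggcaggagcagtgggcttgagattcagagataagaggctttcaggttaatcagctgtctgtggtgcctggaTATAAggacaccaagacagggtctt
Pyy: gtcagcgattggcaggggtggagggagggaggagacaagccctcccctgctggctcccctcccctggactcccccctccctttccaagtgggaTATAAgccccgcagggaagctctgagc
Nts: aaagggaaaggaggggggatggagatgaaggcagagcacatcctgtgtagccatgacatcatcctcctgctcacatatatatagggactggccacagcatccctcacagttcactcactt
Sst: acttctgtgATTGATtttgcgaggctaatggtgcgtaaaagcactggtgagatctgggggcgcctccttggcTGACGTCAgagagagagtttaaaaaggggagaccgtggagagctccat

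In all, 7 motifs were searched in the 250 bases before each start of the 9 genes, which had 13 windows. A gene was counted if any of its windows held the motif, while the percentages are shares of single windows, so the units differ. TATAAA on the gene's strand was found in 2 of 9 genes, Gcg at 24 and Sct at 28 bases before the start, and in 7.59% of the 32851 RefSeq windows of that length. For the Gcg window, and for a Ghrl window, the first 30 bases from the start were not found in a GENCODE M21 transcript of the gene. The Gcg distance thus rests on the RefSeq start alone. The shorter TATAA, added after the windows had been read, was found in 4 of 9, with Gip and Pyy besides, and in 16% of all windows. TGACGTCA was found only in Sst among the 9, at 48 bases before the start, and in 1.55% of windows. Its first letters TGACG, which overlap it, were found on either strand in 4 of 9 genes and 17.8% of windows. ATCAAT was found on either strand in Cck, Sct and Sst and in 6.72% of windows, and in none of Gip, Ghrl, Pyy and Nts. AGATAA (either strand) was found in 4 of 9 and 9.99%, and TTTATG (either strand) in 0 of 9 and 10.8%. A match describes letters in these windows and is not a binding site.

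The rest of the hormone pathway was read from 12 lists holding 145 genes, of which 90 passed the filter and 0 were called by limma. An unadjusted p under 0.05 was found for 2 of the 90, Mme and Ffar1, beside 4.24% of all genes tested. For the maturation of precursors, 9 of 10 genes were tested, with a median log2 fold change of -0.13. Cpe, the carboxypeptidase that trims cut precursors, was 1061 ± 255 in Vil-Cre and 903 ± 170.2 in Vil-Cre:NDI1 mice (SD, n = 5 each), and Pcsk1 was 92.1 ± 18.8 and 83.4 ± 29.8. All 9 granule genes were tested, with a median of -0.08. Chga was 558 ± 69.6 and 530.1 ± 90.6, and Chgb 691 ± 137 and 694 ± 312. Of 14 enteroendocrine lineage genes, 9 were tested, with a median of -0.04, and Neurod1, a factor of these cells, was 28.9 ± 2.81 and 28.6 ± 7.49.

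Receptors of the hormones were mostly low in this tissue, and 5 of 22 were tested, with a median of -0.33. Glp2r, the GLP-2 receptor, was 135.5 ± 22.4 in Vil-Cre and 134 ± 51.3 in Vil-Cre:NDI1 mice. Sort1, a sorting receptor that binds neurotensin, was 1556 ± 140.5 and 1422 ± 91.7, a log2 fold change of -0.13 with a standard error of 0.08 (limma adjusted p = 0.998). Cckbr and Ghsr had 0 reads in each library, which allows up to 3 reads per library.

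Among 7 peptide-degrading enzymes, all tested, the median log2 fold change was 0.10. Dpp4, which inactivates GLP-1 and GIP, was 13080 ± 1642 and 14030 ± 2054 in the order above. Mme, or neprilysin, was 3257 to 10500 in Vil-Cre and 8260 to 10060 in Vil-Cre:NDI1 mice, a log2 fold change of 0.60 with a standard error of 0.25 (limma adjusted p = 0.998). Of 14 nutrient sensors, 8 were tested, with a median of -0.15. Ffar1, a receptor for long-chain fatty acids, was 10.02 to 37.9 and 2.94 to 17.6, a log2 fold change of -1.15 with a standard error of 0.47 (limma adjusted p = 0.998).

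Other peptides of the gut wall were represented by 19 genes, of which 8 were tested, with a median of -0.10. Guca2b, uroguanylin, was 9024 ± 2581 in Vil-Cre and 10400 ± 1876 in Vil-Cre:NDI1 mice, and Guca2a, guanylin, 3221 ± 1269 and 3075 ± 1084. Insl5, a hormone of colonic L cells, had 0 reads in each library. All 12 enteric neuron markers were tested, with a median of -0.02, and their summed level was 472 to 1011 in Vil-Cre and 624 to 950.3 in Vil-Cre:NDI1 mice. Vil-Cre 2, highest in Tac1, was also highest in that sum, and the part of neurons in the Tac1 and Sst values was not tested. Of 14 pancreas markers, 7 had 0 reads in each library, among them Ins1, Ins2, Cpa1, Pnlip and Amy2b. Clps, colipase, the single one tested, was 257 to 1153 and 359 to 786, and the source of its reads was not tested. All 11 enterocyte markers were tested, with a median of 0.24, and of the position lists 6 of 8 proximal and 8 of 10 distal genes were tested, with medians of 0.11 and -0.07.

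The genes whose log2 levels followed each hormone most closely over the 10 mice are a description, since 14300 genes were compared with each over only 10 points that share library and size factor. For Gip they were Sdhd, Fabp1 and Gstm7 (r = 0.98 each), and for Pyy Slc25a24, Defa20 and Lpcat4 (r from 0.97 to 0.98). For Cck they were Lpar6, Tmem230 and Akr1b10 (0.88 to 0.89), for Gcg Pwp1, Fbl and Mesdc2 (0.92 to 0.96), for Sct Abhd12, Tmem9 and Rrs1 (0.92 to 0.95) and for Sst Iqcg, Tmem147os and 1810043H04Rik (0.88 to 0.94). For Tac1 they were Fmo2, RP23-336O18.1 and Arhgef28 (0.91 to 0.95). For Ghrl (Ifnar2, Aifm3 and Reg1) and Nts (Rasd2, Tbc1d2 and Sh3bgrl2) the mice fell into separate sets and no r is given. Among the 14300 genes, Chga ranked from 49 (Sct) to 8530 (Gip) in likeness to the 9 hormones, and Chgb from 124 (Cck) to 13128 (Pyy).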

How the data were processed

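Jejunal RNA of 10 mice, 5 of each genotype, was sequenced. The authors used trimGalore! for trimming, STAR for alignment (GRCm38 plus the NDI1 sequence) and Salmon for quantification. The deposited values are a signal, reads divided by DESeq2 size factors, and not raw counts. All values in each library were whole multiples of 1 read within 0.05, and reads were recovered on that basis. For Vil-Cre 3 and 4 a check against rounding could not decide, so count tests were run on 10 libraries and on 8. Reads per library were 10145705 to 12371530, and floors of 3 reads cover counting error only. The annotation release and strand setting are not given in the sources used here. Lengths and positions came from GENCODE M21.

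For the genotype comparison, log2(value + 1) was fitted by limma (version 3.58.1, R version 4.3.3) with a variance trend. Genes needed a value of 10 or more in 5 or more mice, and p-values were adjusted after Benjamini-Hochberg at a threshold of 0.05. Fold changes on this scale understate those of low genes. Single genes were also compared by the exact permutation test over 252 assignments, which cannot go below p = 0.00794. Labels name separate mice. DESeq2 1.42.0 and edgeR 4.0.16 on recovered reads were alternatives, as were other pseudocounts (0.1 and 8), filters, scaling, a replicate block and leaving out each mouse. Scripts were tested on simulated data.

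The members and lists were chosen with earlier results of these data known. The named genes are the 9 members, in each list the 2 highest per kilobase and the one of smallest p, Chga, Chgb, Pcsk1 and Neurod1, the 3 genes most like each member, and any gene called. The remaining genes this rule takes were Tpst2, Tpst1, Ptprn, Anpep, Ace, Lpar5, Ffar3, Mnx1, Etv1, Uchl1, Vip, Ret, Iapp, Apoa1, Fabp2, Slc5a1, Lct, Gata4, Slc51a and Slc51b, none of which was called. Onecut2, Slc10a2, Fabp6, Cybrd1, Fgf15, Dpp4, Apoa4, Gal, Ffar4, the antisense partners of Ghrl and the genes at 0 were named after their values were seen.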

Additional observations from a re-analysis of the deposited data

Results flagged for a closer look

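In 18 groups of 5 mice (9 hormones in 2 genotypes), 2 held a mouse whose gap to the nearest of the others was over 0.71 of the range of the group, and chance gives about 0.9. The highest Nts value among Vil-Cre:NDI1 mice, 381.9 in mouse 4, stood apart from the other 4, which reached 228. The highest Tac1 value among Vil-Cre mice, 77.7 in mouse 2, stood apart from the other 4, which reached 46.1.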

How the results depend on the processing

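The count of hormone genes called was 0 with other pseudocounts, filters, scaling, count tests on all libraries, the block, each covariate, and without each mouse. It was 1 with DESeq2 on 8 libraries, an alternative added after the data were seen, in which Gip had a log2 fold change of 0.72 (adjusted p = 0.0413). That fit leaves out Vil-Cre 3 and 4, the 2 control mice with the highest Gip, and edgeR on the same 8 libraries called 0 with a similar Gip value of 0.71 (adjusted p = 0.441). DESeq2 on these 8 also moved Ghrl from 0.51 to 1.37 (adjusted p = 0.141), Pyy from -0.15 to -0.996 (adjusted p = 0.279) and Nts from -0.28 to -0.51 (adjusted p = 0.367). Over all genes, 1 was called by limma, 2 with the filter at 50, 31 by DESeq2 on all libraries, 276 by DESeq2 on 8 libraries, 3 with Onecut2 and 2 with Slc10a2 as a covariate, and 1 to 3 without a mouse. Of the genes in the lists, 0 were called, and 4 by DESeq2 on 8 libraries (Ace, Mme, Fgf15 and Fabp1). Pairs past the threshold numbered 2 to 7 without a mouse. The mice's numbers do not pair them (correlations of same-numbered deviations from -0.116 to 0.136). With the replicate block, 1 gene and 0 hormone genes were called.

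Of 196 log2 fold changes of hormones under alternatives, 163 kept direction and call and 32 changed sign, with none of the 32 past the threshold. Gcg was 0.0138 with DESeq2 and 0.0056 with edgeR. Cck was -0.0507 rescaled to equal totals, -0.0065 with edgeR, -0.0787 with Onecut2 and -0.16 with Slc10a2 as a covariate. Sct was -0.0607 rescaled, -0.0011 with DESeq2, -0.0136 with edgeR, and -0.0564 with DESeq2 and -0.0637 with edgeR on 8 libraries. Pyy was 0.12 with Onecut2 and 0.29 with Slc10a2 as a covariate. Without a mouse, Gip ran from 0.07 (without Vil-Cre 5) to 0.46 (without Vil-Cre 3), Ghrl from 0.25 (without Vil-Cre 5) to 0.80 (without Vil-Cre 3), Nts from -0.47 (without Vil-Cre:NDI1 4) to -0.18 (without Vil-Cre:NDI1 1), Gcg from -0.24 to 0.29, Cck from -0.18 to 0.22, Sct from -0.0646 to 0.0589, Pyy from -0.63 to 0.17, Sst from -0.198 to 0.0111 and Tac1 from -0.23 to 0.11. The cause was not tested. Cck and Pyy had an r of -0.73 rescaled to equal totals (permutation adjusted p = 0.106). Depth limits Ghrl, Pyy and Tac1 most, with as few as 11, 10 and 24 reads in a library.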
